A study of Mus musculus with 31 samples.

Results

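The CXC chemokines described here are 6 genes, Cxcl1, Cxcl2, Cxcl10, Cxcl12, Cxcl14 and Cxcl16, taken as a named list from the 20828 genes whose symbol could be matched to a probe of the array. Each gene was read by its brightest probe, and Cxcl12, which has probes for 2 RefSeq transcripts, by both. The values come from 31 two-colour Agilent arrays of the forebrain of 5 day-old NMRI mice, on which a Cy5-labelled and a Cy3-labelled RNA pool were hybridized together. Each pool held RNA of 6 animals (3 males and 3 females), collected as the hemisphere without olfactory bulb.

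In Experiment 1, mice given a single injection of MgSO4 (600 mg/kg, Cy5) were compared with controls of the same age (Cy3) on 4 arrays for each of the 3, 12 and 24 h times and 7 arrays for 6 h. By the labels the injection was subcutaneous and controls received PBS; by the methods it was intraperitoneal and controls were untreated. On the arrays titled RV PBS, 3 at 3 h and 3 at 12 h, pups exposed to hypoxia-ischemia (HI), made by permanent ligature of the right carotid and a period of low oxygen, were labelled with Cy5 and naive pups with Cy3. The treatment label of these Cy5 pools names MgSO4, against their titles, source and the study's description, so the pools were treated here as injured and without MgSO4. On the arrays titled RV Mg, again 3 at 3 h and 3 at 12 h, the sources disagree. The titles name pups given MgSO4 before HI (Cy5) against uninjured pups given MgSO4 (Cy3), the series' design text and the methods name pups given MgSO4 before HI (Cy5) against pups given PBS before HI (Cy3), and the study's figures place the MgSO4 pool in Cy3. Ratios of the RV Mg arrays are therefore given by channel, with no treatment attached to a direction. No dye swap is described for any group, so a dye effect cannot be told apart from the treatment in any ratio.

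CXC chemokines are small secreted proteins that direct the movement of leukocytes and, for some members, of neural cells, through receptors coupled to G proteins. Cxcl1 and Cxcl2 act on Cxcr2 and are best known for drawing neutrophils to inflamed tissue, and Cxcl10, an interferon-inducible ligand of Cxcr3, for drawing activated T and NK cells. Cxcl12 acts on Cxcr4 and Ackr3 and guides migrating neurons and blood cells in development, Cxcl14 is made constitutively in many tissues including brain, and Cxcl16 is a membrane-bound ligand of Cxcr6 that Adam10 can release. In the brain, glia and vascular cells are known to produce Cxcl1 and Cxcl10 after injury. In whole-hemisphere RNA, a change in the number of cells of a type and a change in RNA per cell cannot be told apart.

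A probe counts as detected in a dye where the scanning software marked it well above background. Cxcl12 (both probes) and Cxcl14 were detected on all 31 arrays. Cxcl1 was detected in either dye on 28 arrays, Cxcl16 on 21 and Cxcl10 on 14. Cxcl10 was detected on 12 of the 12 RV PBS and RV Mg arrays and on 2 of the 19 arrays of Experiment 1. Cxcl16 was detected on 12 of those 12 and on 9 of those 19. Cxcl2 was not well above background in either dye on any of the 31 arrays, so no change of Cxcl2 could be measured. Across the series, 45.2% to 69.7% of spots were well above background in Cy3 and 54.4% to 70.2% in Cy5. Within the RV PBS and RV Mg groups, the log2 ratios of arrays of a group correlated across probes with r between 0.24 and 0.68. In Experiment 1 the 21 pairs of 6 h arrays ranged from -0.42 to 0.86, although by the methods all carry MgSO4 in Cy5. The sign of the 6 h ratios rests on the dyes that the methods state.

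**Figure D1:**
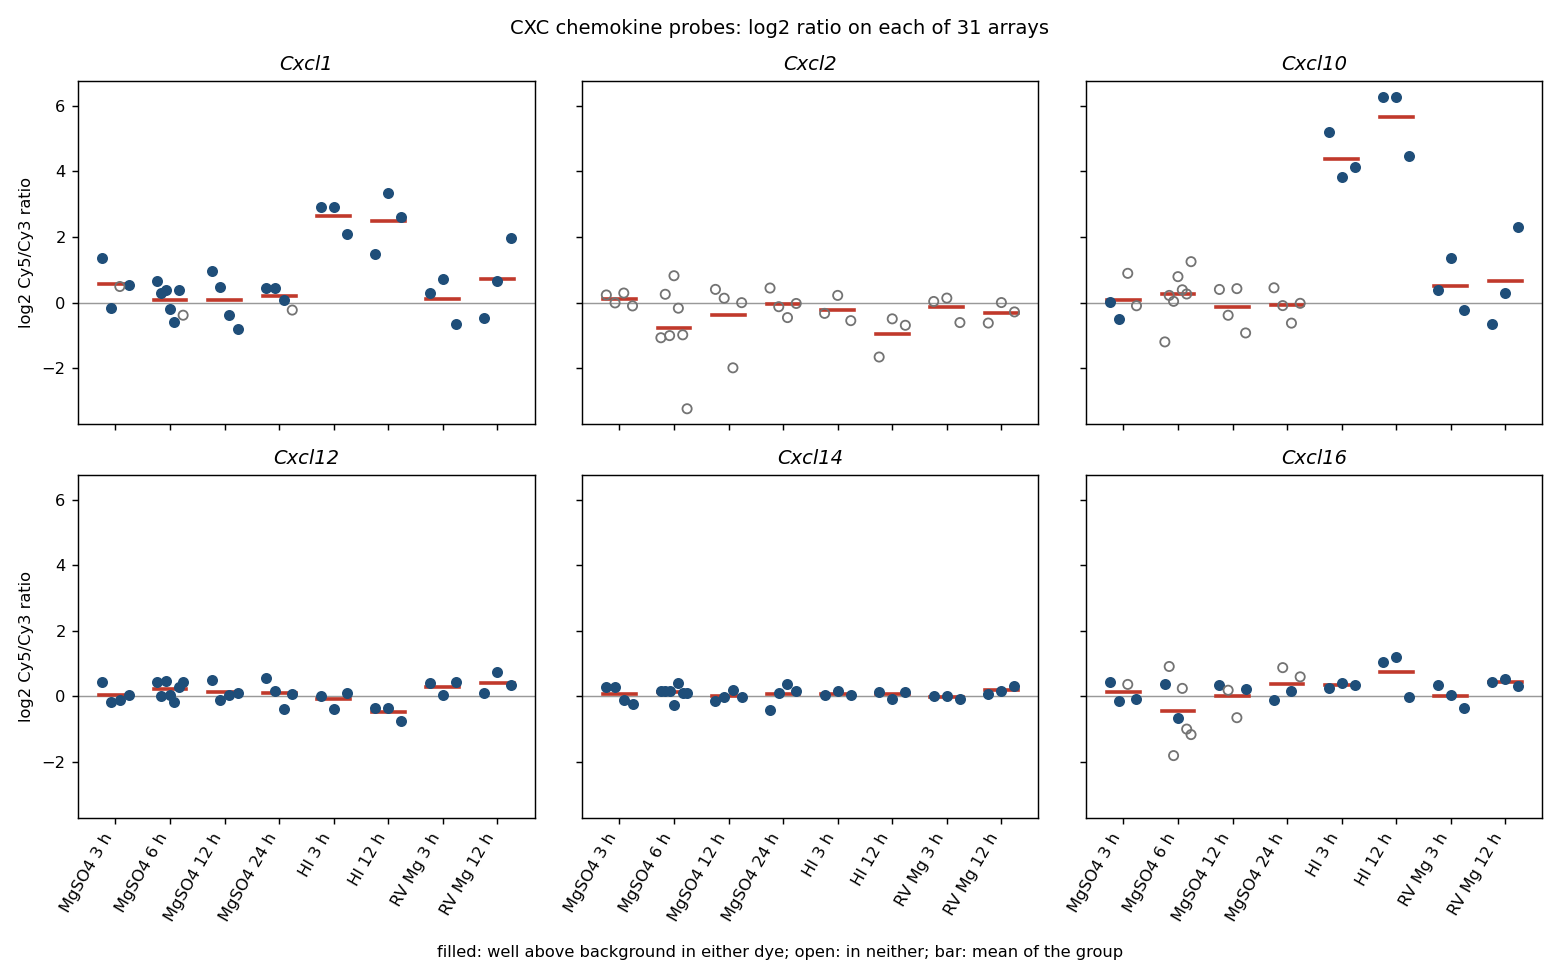
Log2 Cy5/Cy3 ratio of each CXC chemokine probe (vertical axis) on each of the 31 arrays, by group (horizontal axis), with filled points where the probe was well above background in either dye and a bar at the group mean. The 6 HI arrays stand at 1.49 to 3.34 for Cxcl1 and 3.83 to 6.28 for Cxcl10, above every array of Experiment 1 (highest 1.37 and 1.25), and all Cxcl2 points are open.

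The first question was how the neutrophil-attracting ligands responded to HI. At 3 h, the log2 ratio of HI over control for Cxcl1 was 2.92, 2.91 and 2.10 on the 3 arrays. All 3 lay far above 0, and above every Cxcl1 ratio of Experiment 1. Cxcl1 RNA rose 6.25-fold, its log2 ratios averaging 2.64 ± 0.47 (SD, n = 3; 95% confidence interval 2.17 to 3.12; limma, Benjamini-Hochberg adjusted p = 0.0124). At 12 h, the 3 Cxcl1 ratios were 1.49, 3.34 and 2.61. They were again all above 0 but spread more widely, and the mean of 2.48 ± 0.94 (SD, n = 3; interval 1.60 to 3.36), 5.58-fold, did not pass the adjusted threshold (limma, adjusted p = 0.0735). Leaving out replicate 1 or replicate 3 of the 12 h arrays brought Cxcl1 past it, at 2.98 and 2.42 (limma, adjusted p = 0.00093 and 0.00901), and leaving out replicate 1 of the 3 h arrays ended the call there, at 2.51 (adjusted p = 0.0596). The difference between the times, 12 h minus 3 h, was -0.16 on the log2 scale (interval -1.26 to 0.94; limma, adjusted p = 0.867).

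The control side of these Cxcl1 ratios was dim. In Cy3, Cxcl1 was well above background on 1 of 3 control pools at 3 h and on 2 of 3 at 12 h, while all 6 HI pools were detected in Cy5. The size of the fold was examined with other processing. Raising signals not well above background to the detection limit of their array and dye could not test the Cxcl1 fold. That limit is the array's lowest signal well above background. No Cxcl1 signal lay below it, so the ratio stayed unchanged on all 6 arrays. This alternative was chosen after the data were seen. With median signals, no background subtraction and loess normalization, the Cxcl1 log2 ratio of HI over control was 1.21 at 3 h and 1.19 at 12 h. Cxcl1 was called at both times (limma, adjusted p = 9.42e-06 and 0.0403). On the MgSO4 arrays this setting called 36, 26, 65 and 28 probes at 3, 6, 12 and 24 h, all higher in Cy5. Whether it favours Cy5 was not tested. Its steps were changed together, so the part of each was not tested.

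Cxcl1 and Cxcl2 lie next to each other on chromosome 5, and the 250 bases before their transcription starts are shown because they share a stretch of sequence although only Cxcl1 was detected. The windows are chr5:90890995-90891244 and chr5:90903649-90903898, both on the plus strand of GRCm38.p6 (RefSeq), written 5′ to 3′, with capitals marking matches to the NF-kappaB consensus on either strand.
Cxcl1: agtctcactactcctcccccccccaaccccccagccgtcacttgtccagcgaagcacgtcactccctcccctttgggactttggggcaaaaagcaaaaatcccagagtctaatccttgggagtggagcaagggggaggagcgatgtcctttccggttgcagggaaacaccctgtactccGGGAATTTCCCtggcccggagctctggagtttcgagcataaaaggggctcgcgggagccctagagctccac
Cxcl2: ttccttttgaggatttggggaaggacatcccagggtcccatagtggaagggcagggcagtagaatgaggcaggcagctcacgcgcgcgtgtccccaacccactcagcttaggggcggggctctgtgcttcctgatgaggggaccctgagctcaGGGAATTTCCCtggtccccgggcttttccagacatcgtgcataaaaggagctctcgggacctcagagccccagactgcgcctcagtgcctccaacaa
In each window the consensus was matched on both strands, by overlapping bases, from 71 to 61 bases before the Cxcl1 start and from 97 to 87 bases before the Cxcl2 start. The longest run that the windows share is gggaatttccctgg, 14 bases that begin 71 and 97 bases before the starts and hold these matches. Of 32851 promoter windows of the same length in RefSeq, 3.9% hold a match to the consensus. A match is a description of the letters, and binding was not measured.

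Cxcl10, the interferon-inducible ligand, had the largest HI ratio among the 6 genes at both times. At 3 h, its log2 ratio of HI over control was 5.21, 3.83 and 4.12 on the 3 arrays. Cxcl10 RNA rose, with a mean of 4.39 ± 0.73 (SD, n = 3; interval 3.68 to 5.09; limma, adjusted p = 0.0111), 20.9-fold against control signals of which 1 of 3 was detected. At 12 h, the 3 ratios were 6.28, 6.27 and 4.47, all above the highest Cxcl10 ratio of Experiment 1. Their mean was 5.68 ± 1.05 (SD, n = 3; interval 4.70 to 6.65), 51.1-fold against control signals of which again 1 of 3 was detected, with an unadjusted p of 1.65e-05 in the limma fit across all probes, and it did not pass the adjusted threshold (limma, adjusted p = 0.0627). Leaving out any single 12 h array brought Cxcl10 past it, with mean log2 ratios of 5.37, 5.38 and 6.28 without replicates 1, 2 and 3. The control pool detected at 12 h was that of replicate 3, so the value without it rests on undetected control signals. With those raised to the detection limit, the ratios of replicates 1 and 2 were 4.19 and 5.23. The difference of 1.29 between 12 h and 3 h had an interval of -0.04 to 2.61 and did not pass the test (limma, adjusted p = 0.293).

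Cxcl10 was well above background in Cy3 on 1 of the 3 control pools at each time, and in Cy5 on all 6 HI pools. With median signals, no background subtraction and loess, the Cxcl10 log2 ratio was 2.51 at 3 h and 2.98 at 12 h. It was called at both times (limma, adjusted p = 9.36e-06 and 0.0226), by the setting whose calls on the MgSO4 arrays were all higher in Cy5. With signals not well above background raised to the detection limit of their array and dye, an alternative chosen after the data were seen, the ratio was 4.34 at 3 h and 4.63 at 12 h, and Cxcl10 was again called at both times (limma, adjusted p = 0.00522 and 0.00899). The level of Cxcl10 in a dye, as log2 signal relative to the 75th percentile of the array, shows where the difference between arrays lay. In the HI pools it was -0.48, -1.79 and -1.46 at 3 h and -0.60, 0.21 and -0.27 at 12 h. In the control pools on the same arrays it was -5.71, -5.63 and -5.58 at 3 h and -6.88, -6.07 and -4.74 at 12 h, so the highest control pool, replicate 3 at 12 h, belongs to the lowest of the 12 h ratios.

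The Cxcl10 window, chr5:92348890-92349139 on the minus strand (GRCm38.p6), is shown because it holds the letters of 3 motifs of inducible genes, and Cxcl10 and Cxcl1 were the members called. Capitals mark, in order, the interferon-stimulated response element core (GAAA, any 2 bases, then GAAA), the NF-kappaB consensus in both of its copies and the AP-1 site TGANTCA.
Cxcl10: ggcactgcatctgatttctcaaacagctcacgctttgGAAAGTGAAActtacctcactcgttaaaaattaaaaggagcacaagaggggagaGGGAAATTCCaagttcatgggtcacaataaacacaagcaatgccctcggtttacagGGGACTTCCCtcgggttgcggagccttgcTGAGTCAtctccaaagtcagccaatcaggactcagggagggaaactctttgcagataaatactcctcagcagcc
The element core stands 213 to 204 bases before the start, the NF-kappaB matches at 159 to 150 and 103 to 94, and the AP-1 site at 74 to 68. These motifs, searched on both strands, are in 2.98%, 3.9% and 6.75% of the 32851 windows. The Cxcl14 window also holds the element core, 172 to 163 bases before its start, and the Cxcl12 window holds none of them. TATAAA, found in 12.4% of windows, is in none of the 5 windows given, and RefSeq gave a window for 5 of the 6 genes, all but Cxcl16.

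Counted over the list, 2 of the 5 members tested were called at 3 h of HI, both higher, where 3.79% of all 18915 probes tested were called in either direction and 2.42% higher. A call needed a limma adjusted p under 0.05 over all tested probes and a fold change of 1.5. The median log2 ratio of the members tested was 0.34, beside -0.02 over all tested probes. At 12 h of HI, none of 5 was called, where 0.0106% of all tested probes were called; 4 of the 5 had an unadjusted p under 0.05, as had 27.5% of all tested probes. With the same fold and no adjustment, the methods' t-test picked 2, and 933 of all 18924 probes tested at 12 h. The median of the members tested was 0.74 at 12 h, beside 0.003 over all tested probes. By the methods' t-test with Benjamini-Hochberg adjustment, no member was called at either time, and neither was any other probe.

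The ligands with developmental and constitutive roles had smaller ratios. For Cxcl12, the probe for NM_021704 had log2 ratios of HI over control of 0.01, -0.38 and 0.08 at 3 h, and -0.37, -0.35 and -0.76 at 12 h. The means were -0.10 (interval -0.37 to 0.18; limma, adjusted p = 0.561) and -0.49 (interval -0.84 to -0.14; limma, adjusted p = 0.111), so the 12 h arrays all lay below 0 without passing the test. The other probe, for NM_001012477, had ratios of -0.78, -0.52 and -0.08 at 3 h and 0.21, 0.23 and 0.07 at 12 h. Its means were -0.46 (limma, adjusted p = 0.0903) and 0.17 (limma, adjusted p = 0.379), and neither was called.

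The 2 Cxcl12 probes thus stood in opposite order at the 2 times. The NM_021704 ratio exceeded the NM_001012477 ratio on 3 of 3 HI arrays at 3 h, by 0.14 to 0.79, and was lower on 3 of 3 at 12 h, by -0.83 to -0.57. On the RV Mg arrays the NM_021704 ratio was the higher on all 6, by 0.33 to 0.58 (3 h) and by 0.08 to 0.52 (12 h). Among MgSO4 arrays it was higher on 1 of 4, 6 of 7, 2 of 4 and 2 of 4 arrays at 3, 6, 12 and 24 h. Over all 31 arrays the log2 ratios of the probes correlated with r = 0.28, a description over arrays that share groups. The difference between the probes was not itself tested.

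**Figure D2:**
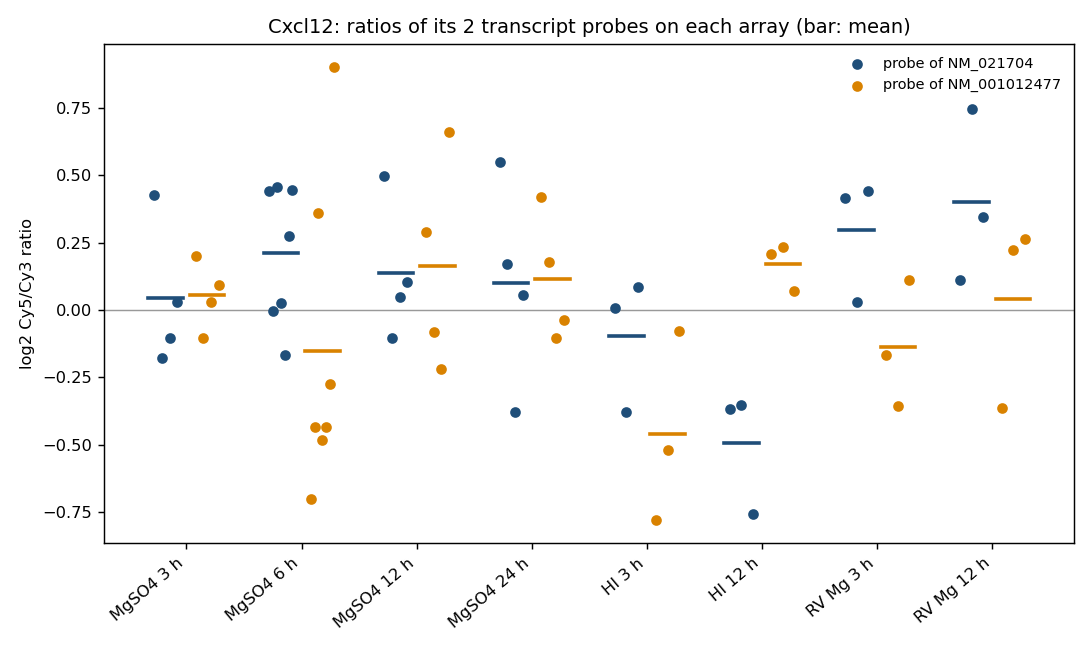
Log2 Cy5/Cy3 ratio (vertical axis) of the 2 transcript probes of Cxcl12 on each array, by group (horizontal axis), with a bar at each group mean. At 3 h of HI the NM_021704 mean (-0.10) stands above the NM_001012477 mean (-0.46), and at 12 h below it (-0.49 against 0.17).

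Cxcl14 was detected on every array and stayed within a narrow band. Its log2 ratios of HI over control were 0.04, 0.17 and 0.02 at 3 h and 0.12, -0.07 and 0.13 at 12 h. The means of 0.08 (interval -0.09 to 0.25) and 0.06 (interval -0.24 to 0.36) had intervals that lay within the 1.5-fold used for a call in either direction (log2 0.585). Neither passed the test (limma, adjusted p = 0.435 and 0.77).

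Cxcl16, the membrane-bound ligand, had log2 ratios of HI over control of 0.26, 0.40 and 0.34 at 3 h. All 3 were above 0 and close together, and the mean of 0.34 ± 0.07 (SD, n = 3), 1.26-fold, had an adjusted p of 0.0372 by limma but was below the 1.5-fold needed for a call. At 12 h the ratios were 1.04, 1.21 and -0.02, so 2 arrays stood near 1 and replicate 3 at 0. Their mean was 0.74 ± 0.67 (SD, n = 3; interval 0.08 to 1.40; limma, adjusted p = 0.152), and without replicate 3 it was 1.12 and was called (adjusted p = 0.00847). In Cy3, Cxcl16 was well above background on 1 of the 3 control pools at 12 h, replicate 3. The 12 h minus 3 h difference of 0.41 had an interval of -0.32 to 1.13. For none of the 5 genes tested was the difference of the HI ratio between the times called, where 0.0378% of probes were. At an unadjusted p under 0.05, which 17.7% of all tested probes reached, the members' probes gave 1, that of Cxcl12 for NM_001012477 (0.63, interval 0.18 to 1.07; limma, adjusted p = 0.187).

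The genes whose log2 ratios over the 31 arrays were most like those of Cxcl10, among 14115 candidates, were Ccl4 (Pearson r = 0.94), Cd14 (0.92), Ccl2 (0.91), Ccl3 (0.89) and Cited1 (0.84). For Cxcl1 they were Tnfrsf12a (0.89), Ccl2 (0.87), Tuba1c (0.85), Ccl4 (0.84) and Ccl3 (0.83). The 3 CC chemokines Ccl2, Ccl3 and Ccl4 are on both lists, and Cxcl1 and Cxcl10 correlated with each other with r = 0.82. For Cxcl12 (NM_021704) the highest were Ube2e1 (0.82), Lum (0.80), Fli1 (0.79), Aifm3 (0.77) and Usp1 (0.77). For Cxcl16 they were Hmmr (0.69), Acad11 (0.65), Fam83g (0.65), Tsku (0.64) and Gbp5 (0.64), and for Cxcl14 Elob led with 0.68. These values describe arrays that share groups, slides and, as stated, a fixed dye order, and were not tested. Candidates were limited to genes tested in both HI groups, so a gene could enter through the groups where Cxcl1 and Cxcl10 are high. Cxcl10 was detected in either dye on 14 of the 31 arrays, Cxcl1 on 28 and Cxcl16 on 21, and the other arrays add ratios of undetected signals.

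Of the rest of the CXC system, few genes could be measured. Among the other CXC ligands, 8 of 9 are on the array and 2 were tested in HI. Cxcl5, another ligand of Cxcr2, rose at 3 h with log2 ratios between 0.73 and 1.09 and a mean of 0.86 (limma, adjusted p = 0.0169), and at 12 h its mean was -0.30 (adjusted p = 0.34). Pf4, the platelet factor, had means of -0.13 and -0.10 and was not called. Among 8 receptors, 3 were tested and none was called at either time. Cxcr4, the Cxcl12 receptor, had means of 0.01 and -0.19, and the scavenger receptor Ackr3 0.16 and -0.20. Ackr1, which binds Cxcl1 on venules, had means of 0.46 and 1.18, with all 6 arrays above 0 (limma, adjusted p = 0.0725 and 0.0798). Cxcr1, Cxcr2, Cxcr3, Cxcr5 and Cxcr6 did not pass the filter on low signals, so the receptors of Cxcl1, Cxcl10 and Cxcl16 were not measured.

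Cytokines known to induce these ligands, and regulators of NF-kappaB and cytokine signalling, were examined as lists. Of 8 inducing cytokines, 3 were tested at 3 h and 2 at 12 h, and none was called. The interleukin Il1b was not well above background on any control pool and on 2 of 3 HI pools at each time. Its mean log2 ratios were 1.23 and 2.09 (limma, adjusted p = 0.052 and 0.075). With the dim side set at the detection limit, HI was 1.21-fold and 1.71-fold higher, on signals that were also normalized between arrays. Il6 had means of 1.84 and 3.19, with at least 2.16-fold at 12 h (limma, adjusted p = 0.122 and 0.0775). Of 9 NF-kappaB regulators, 7 were tested at each time and 2 rose at 3 h. Socs3, a feedback inhibitor of cytokine signalling, rose with a mean of 1.71 (limma, adjusted p = 0.0059). Zfp36, which destabilizes cytokine and chemokine mRNA, rose with a measured mean of 2.45 (limma, adjusted p = 0.00412). No control pool and 2 of 3 HI pools were well above background for it, and set in the same way it was 1.98-fold higher. None of the 7 was called at 12 h.

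Of 8 interferon factors, 5 were tested at 3 h and 6 at 12 h, and none was called. Irf1, a transcription factor of interferon signalling, had a mean log2 ratio of 0.92 at 3 h and 0.38 at 12 h (limma, adjusted p = 0.0528 and 0.125). The interferon-induced Ifit3 had means of -0.01 and 1.34 and Isg15 -0.26 and 1.08, with all 3 arrays above 0 for both genes at 12 h (limma, adjusted p = 0.0735 and 0.101). The median of the tested interferon factors was -0.07 at 3 h and 0.57 at 12 h. The proteases Adam10, Adam17 and Dpp4, which cut or release chemokines, had means between -0.39 and -0.03, and none was called.

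**Figure D3:**
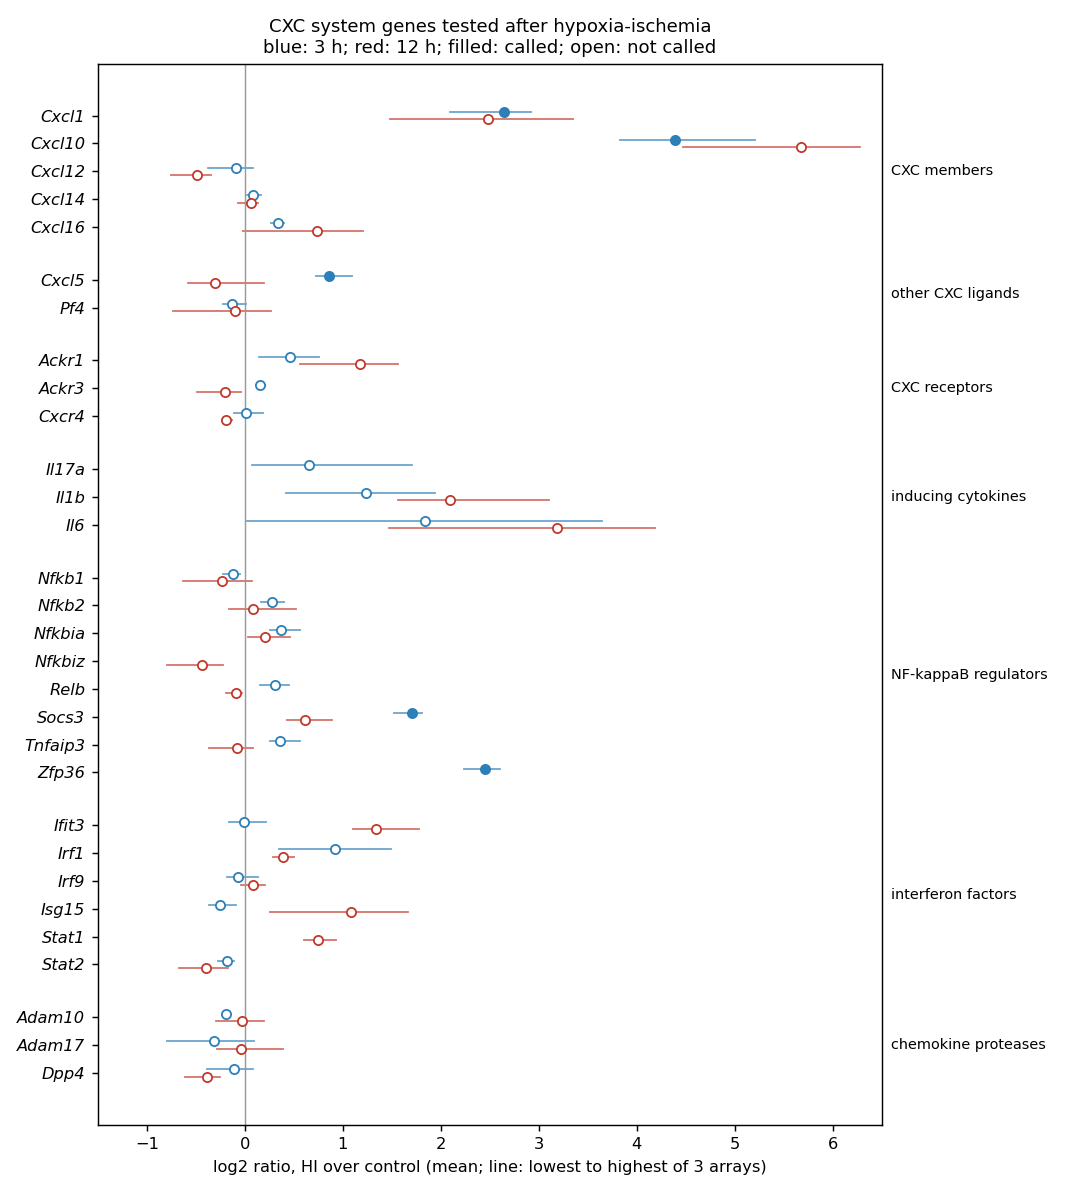
Mean log2 ratio of HI over control (horizontal axis) for every tested gene of the CXC system and its inducers and regulators (vertical axis), at 3 h in blue and 12 h in red, with lines from the lowest to the highest of 3 arrays and filled points for calls. The filled points are Cxcl1, Cxcl10, Cxcl5, Socs3 and Zfp36 at 3 h, and no 12 h point is filled although Cxcl10 and Il6 stand at 5.68 and 3.19.

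Markers of cell types that carry or receive these chemokines moved in part with the HI groups. Of 8 neutrophil markers, 6 were tested and 2 rose at 3 h, S100a8 (1.09; limma, adjusted p = 0.0124) and S100a9 (0.82; adjusted p = 0.0291). The summed level of the 8 was 4.67 to 4.84 in the HI pools and 4.26 to 4.53 in the control pools at 3 h, on the log2 scale relative to the 75th percentile, and 4.55 to 5.03 against 4.29 to 4.57 at 12 h. Of the granule genes, Ltf and Ngp were well above background on no 3 h array and Ltf on no 12 h array, and Mpo and Camp had means of -0.64 and -0.10 at 3 h. Among 7 microglia markers, all tested, none was called, and their summed level was 4.51 to 4.60 against 4.40 to 4.55 at 3 h and 4.02 to 4.74 against 4.09 to 4.51 at 12 h. P2ry12 had a mean of -1.08 at 12 h (limma, adjusted p = 0.0828). Of 5 T and NK cell markers, Cd3d, Cd8a and Ncr1 were well above background on no HI array, and the summed level was 0.78 to 1.42 against 0.87 to 1.51 at 12 h. The summed level of 4 choroid plexus markers was 6.29 to 7.06 in the HI pools and 5.62 to 5.92 in the controls at 12 h, with none called. Of 4 pericyte markers, all tested, Kcnj8 was called lower at 3 h (-0.62; limma, adjusted p = 0.0483) and none at 12 h, where the median of the list was 0.60. The summed pericyte level was 0.18 to 0.42 in the HI pools and 0.24 to 0.44 in the controls at 3 h, and 0.28 to 0.33 against 0.22 to 0.55 at 12 h. The part of any of these cell types in the Cxcl1 and Cxcl10 ratios was not tested.

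The arrays titled RV Mg asked how the same genes differed between pools of which at least the Cy5 one had been injured. At 3 h, their log2 Cy5/Cy3 ratios for Cxcl1 were 0.28, 0.72 and -0.65, and at 12 h -0.46, 0.66 and 1.98. The signs were mixed at both times, and the means of 0.12 (interval -0.51 to 0.75) and 0.73 (interval -0.41 to 1.86) did not pass the test (limma, adjusted p = 0.797 and 0.351). For Cxcl10 the ratios were 0.39, 1.37 and -0.22 at 3 h and -0.64, 0.30 and 2.31 at 12 h. Their means were 0.52 ± 0.80 and 0.66 ± 1.51 (SD, n = 3 each; intervals -0.20 to 1.23 and -0.73 to 2.05; limma, adjusted p = 0.285 and 0.481). Replicate 3 at 12 h carried the highest ratio of both genes, and without it the means at 12 h were 0.10 for Cxcl1 and -0.17 for Cxcl10.

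The other members of the list had narrower ratios on the RV Mg arrays. Cxcl12 (NM_021704) was the higher in Cy5 on 6 of 6 arrays, at 0.42, 0.03 and 0.44 at 3 h and 0.11, 0.74 and 0.34 at 12 h. The means of 0.30 and 0.40 were not called (limma, adjusted p = 0.174 and 0.172). Cxcl14 had means of -0.03 and 0.18, and Cxcl16 of 0.01 and 0.42, the last with all 3 arrays between 0.32 and 0.53 (limma, adjusted p = 0.0948). No member of 5 tested was called at 3 h, where 7.63% of all tested probes were called, or at 12 h, where 0% were. At an unadjusted p under 0.05 in the limma fit, 0 members passed at 3 h and 2 of 5 at 12 h, beside 30.2% and 26.6% of all tested probes. The methods' t-test with the fold picked 0 members at both times, and 1205 of 19252 (3 h) and 546 of 19263 (12 h) tested probes. No member's difference between 3 h and 12 h on these arrays was called (limma, adjusted p = 0.999 for each), where 0% of probes were.

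Markers of other cells differed between the dyes of the same arrays. At 3 h, 3 of 6 tested neutrophil markers were called lower in Cy5, with a list median of -0.59. S100a9 had a mean of -1.005 and Camp of -0.60 (limma, adjusted p = 0.033 and 0.0337), and Mpo, not well above background in Cy5 on any of the 3 arrays, was at least 1.31-fold lower there (adjusted p = 0.0465). The summed neutrophil level was 4.56 to 4.82 in Cy5 and 4.55 to 4.98 in Cy3. Of 2 monocyte markers tested, Chil3 was called lower (-0.64; limma, adjusted p = 0.0426). Of the NF-kappaB regulators, Nfkb1 was called higher in Cy5 (1.05; limma, adjusted p = 0.00847). No gene of these 3 lists was called at 12 h. The part of these cells in the chemokine ratios of the RV Mg arrays was not tested.

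Single dyes were then compared between RV Mg and RV PBS arrays of the same time, which needs no ratio across dyes. In Cy5, where both kinds of array held injured pools, the Cxcl10 level on the RV Mg arrays was -0.38, -1.57 and -1.18 at 3 h and -0.45, 0.65 and 0.02 at 12 h. The difference from the HI pools of the RV PBS arrays was 0.21 at 3 h (interval -0.79 to 1.20) and 0.29 at 12 h (interval -0.49 to 1.07), and neither passed the test (limma, adjusted p = 0.791 and 0.717). Taken by replicate number, Cxcl10 was the higher on the RV Mg array in 6 of 6 pairs, by 0.11 to 0.28 at 3 h and 0.15 to 0.44 at 12 h, differences below the fold needed for a call (limma with the replicate number as a block, adjusted p = 0.0611 and 0.213). For Cxcl1 the Cy5 differences were -0.13 (interval -0.36 to 0.11) and -0.23 (interval -1.58 to 1.13; limma, adjusted p = 0.441 and 0.882), and Cxcl1 was the lower on the RV Mg array in 3 of 3 pairs at 3 h and 2 of 3 at 12 h. None of 5 members was called in Cy5 at 3 h, where 6.28% of probes were called, or at 12 h, where 0% were.

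Arrays with the same replicate number shared a slide, and their Cy5 levels lay close together. A slide also held 2 replicate numbers, 1 and 2 at 3 h and 2 and 3 at 12 h. On the 3 h slide the Cxcl10 Cy5 levels were -0.48 and -0.38 for replicate 1 and -1.79 and -1.57 for replicate 2 (RV PBS and RV Mg). For Cxcl10, the same-numbered arrays differed in Cy5 by at most 0.28 at 3 h and 0.44 at 12 h, while the HI pools of the RV PBS arrays ranged over -1.79 to -0.48 at 3 h. For Cxcl1 the same-numbered arrays differed by at most 0.17 and 0.53. Replicate 2 was the lowest of the 3 for Cxcl10 in both kinds of array at 3 h and the highest in both at 12 h. What same-numbered pools share besides the slide is not given in the labels.

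In Cy3 the mean levels of Cxcl10 and Cxcl1 were higher on the RV Mg than on the RV PBS arrays. The Cy3 level of Cxcl10 was -0.78, -2.95 and -0.97 on the RV Mg arrays at 3 h, against -5.71, -5.63 and -5.58 in the controls of the RV PBS arrays. The difference of 4.07 (interval 2.83 to 5.31) was called (limma, adjusted p = 0.0431). It was lost without any 1 of 5 of the 6 arrays (adjusted p = 0.0601 to 0.176, differences 3.68 to 4.10), the exception being RV Mg replicate 2. It was also lost with quantile normalization (4.04; adjusted p = 0.0557) and without the filter on low signals (adjusted p = 0.116). For Cxcl1 the Cy3 levels were -2.95, -3.55 and -2.09 against -5.41, -5.57 and -4.78, a difference of 2.39 (interval 1.51 to 3.28). It was not called (limma, adjusted p = 0.0709), but with the replicate number as a block, which pairs same-numbered arrays, it was (adjusted p = 0.00532). At 3 h Cxcl10 and Cxcl1 passed the filter through the RV Mg arrays. Each was well above background in Cy3 on 3 of 3 of them, against 1 of 3 RV PBS arrays. In all, 1 of 5 members was called in Cy3 at 3 h, where 0.294% of probes were called and 0.273% were called higher.

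At 12 h, the Cy3 level of Cxcl10 on the RV Mg arrays was 0.19, 0.33 and -2.31, against -6.88, -6.07 and -4.74 in the controls of the RV PBS arrays. The difference was 5.30 (interval 3.34 to 7.27). Cxcl10 passed the filter through the RV Mg arrays, where it was well above background in Cy3 on 3 of 3, against 1 of 3 RV PBS arrays. For Cxcl1 the Cy3 levels were -2.82, -1.91 and -4.22 against -4.24, -4.64 and -4.63, a difference of 1.52 (interval 0.24 to 2.81). Neither was called (limma, adjusted p = 0.291 and 0.356), in a comparison where 0% of all probes were. RV Mg replicate 3 was the lowest of its group for both genes. Whichever treatment the Cy3 pools of the RV Mg arrays had, their Cxcl10 level was above that of the naive pools in 6 of 6 same-numbered pairs, by 2.43 to 7.08. Of these 6 naive pools 2 were well above background, and with the other 4 raised to the detection limit the differences were 2.43 to 5.36.

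Of the remaining members, Cxcl12 and Cxcl14 had smaller differences. The Cy3 level of Cxcl12 (NM_021704) on RV Mg minus RV PBS arrays was -0.05 at 3 h and -0.46 at 12 h, and its Cy5 difference 0.35 and 0.43. None passed the test (limma, adjusted p = 0.922, 0.353, 0.0801 and 0.388). The NM_001012477 probe went the other way in Cy5. It was the lower on the RV Mg arrays in 12 of 12 same-numbered comparisons of a dye, by means of -0.74 (interval -1.29 to -0.19) and -0.28 in Cy3 and -0.41 and -0.40 in Cy5 at 3 h and 12 h, and was not called (limma, adjusted p = 0.261, 0.423, 0.212 and 0.466). With the replicate number as a block, the Cy5 differences at 3 h of both Cxcl12 probes and of Cxcl14 had adjusted p under 0.05 (limma, 0.0184 for NM_021704, 0.0132 for NM_001012477 and 0.0217 for Cxcl14), without reaching the 1.5-fold of a call. Cxcl14 was the lower on the RV Mg arrays in 12 of 12 same-numbered comparisons of a dye, with mean differences of -0.25 and -0.49 in Cy3 and -0.35 and -0.37 in Cy5. The lowest unadjusted p among these was 0.00757 in the limma fit, for Cy3 at 12 h, and none was called (adjusted p = 0.106 to 0.55). The dyes of an array are not independent of its slide and scan, so the 12 comparisons are not 12 replicates.

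Last, MgSO4 alone was compared with control in uninjured pups. The members tested were Cxcl1, Cxcl12 and Cxcl14 at all 4 times and Cxcl16 at 3 h, 13 tests in all, and Cxcl2 and Cxcl10 did not pass the filter on low signals. None of the 13 was called, with limma adjusted p between 0.429 and 0.995. The share of all tested probes that were called was 0% (3 h), 0.0284% (6 h), 0% (12 h) and 0.00555% (24 h). At an unadjusted p under 0.05 in the limma fit 1 member passed at 3 h and 0 at the other times, beside 9.03%, 13.2%, 15.7% and 11.1% of all tested probes at 3, 6, 12 and 24 h. The methods' t-test with the fold picked 0 members at each time. Of all tested probes it picked 112 of 18646 (3 h), 192 of 17636 (6 h), 214 of 17864 (12 h) and 74 of 18029 (24 h). Mean log2 ratios in these 13 tests lay between 0.002 and 0.56, and the bounds of their intervals between -0.63 and 1.12. The NM_001012477 probe of Cxcl12, tested beside them, had means of 0.06, -0.15, 0.16 and 0.11 at the 4 times and was not called (limma, adjusted p = 0.605 to 0.852).

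The 1 member with an unadjusted p under 0.05 was Cxcl1 at 3 h, with log2 ratios of MgSO4 over control of 1.37, -0.15, 0.49 and 0.54. The mean was 0.56 ± 0.62 (SD, n = 4), and replicate 1 stood above the others (limma, adjusted p = 0.553). At 6, 12 and 24 h the Cxcl1 means were 0.08, 0.07 and 0.19. Cxcl12 (NM_021704) had means of 0.04, 0.21, 0.14 and 0.10 at the 4 times and Cxcl14 of 0.05, 0.11, 0.002 and 0.05. Cxcl16 had a mean of 0.14 at 3 h. At 6 h, replicates 3 and 7 correlated negatively with replicates 1, 2 and 6. They were the 6 h arrays of 1 slide, with the lowest shares of spots well above background in Cy3 in the series (49.9% and 45.2%). Leaving out both gave -0.47 for the NM_001012477 probe of Cxcl12, in place of -0.15 with all 7 arrays. The value was below the fold needed for a call (limma, adjusted p = 0.0188). Without both, 1499 probes were called in place of 5.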

How the data were processed

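Scans of 31 arrays (9 slides) were extracted by the authors with Agilent Feature Extraction 10.5.1.1. The deposited processed intensities are background-subtracted and dye-normalized within each array (LOWESS), per the file headers and the methods. The authors' deposited table of log10 ratios was not used for the values given. Here, log2 Cy5/Cy3 ratios were computed from the processed intensities, leaving out spots marked as outliers and averaging spots of a probe. Probes were named through RefSeq accessions, and coordinates of promoter windows are from GRCm38.p6. A probe was tested where it was well above background in either dye on at least 66.7% of a group's arrays. Each group's mean was tested against 0 with limma 3.58.1 (R 4.3.3), checked on simulated data, and called where it reached a fold change of 1.5 (log2 0.585) with p, adjusted by Benjamini-Hochberg across every tested probe, under 0.05. Single-dye levels are log2 signals minus the array's 75th percentile. Folds with the dim side set at the detection limit used processed signals whose average intensities were also quantile-normalized between arrays. Intervals are 95%. The members, gene lists and motifs were chosen with earlier results of these data known. The members were named by rule in every comparison, list genes where called or where a member's result turns on them, and for each member the 5 genes of highest correlation. P-values measure the spread between arrays, which is the spread between RNA pools only where each array holds a different pool. The methods give fewer independent samples per time of Experiment 1 than it has arrays. Whether all of its arrays hold different pools is therefore not known. The number of arrays limits the precision. Same-numbered RV PBS and RV Mg arrays share a slide, and their deviations from the group means correlated with r of 0.18 to 0.38 (Cy3, 3 h), 0.23 to 0.52 (Cy5, 3 h) and 0.27 to 0.44 (Cy5, 12 h), so the replicate number pairs them there. Alternatives were median signals with loess, no filter on low signals, outlier spots kept, the mean over probes, the methods' t-test, quantile normalization, slide and replicate blocks, leaving out arrays and, added after the data were seen, raising signals not well above background to the array's detection limit in that dye (its lowest signal well above background).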

Additional observations from a re-analysis of the deposited data

Results flagged for a closer look

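For the Cxcl12 probe of NM_001012477, every HI array lay below 0 at 3 h (-0.78, -0.52 and -0.08) and every HI array above 0 at 12 h (0.21, 0.23 and 0.07). The difference of the means, 12 h minus 3 h, was 0.63 on the log2 scale and did not pass the adjusted threshold in its own test (limma, adjusted p = 0.187). No array stood far from its group among the 17 sets of member values of 4 to 7 arrays that were examined.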

How the results depend on the processing

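Of the counts of members called, 125 stayed within 1.5 times of the value given under the alternatives and 17 did not. The value given was above 0 only for HI at 3 h (2) and the Cy3 level at 3 h (1). Most of the 125 are therefore counts of 0 that stayed 0, and they say little about the calls that were made. Of the values of single members, 703 kept direction and call, 12 lost the call, 11 gained it and 37 changed sign, and most of those lay near 0. Where a value moved, the cause was not tested, though leaving out the filter adds probes to the adjustment. Subtracting no background compresses ratios of dim probes, but it was changed together with the normalization. Signal over background limits Cxcl1, Cxcl10 and Cxcl16, whose control side was often not detected, and Cxcl2 altogether. At 3 h of HI the count of 2 members called became 0 without the filter (Cxcl1 adjusted p = 0.0525, Cxcl10 adjusted p = 0.0507; 33 probes called in place of 717) and 0 by the methods' t-test with Benjamini-Hochberg adjustment, and it was 1 to 2 with an array left out (28 probes called without replicate 1). Median signals with loess gave 316 called probes there. At 12 h of HI the count of 0 became 2 with median signals and loess (551 probes called in place of 2), 1 with signals not well above background raised to the detection limit (14 probes called), an alternative chosen after seeing the data, and 1 to 3 with an array left out (500, 22 and 3272 probes called without replicates 1, 2 and 3). For the Cy3 level at 3 h the count of 1 became 0 with quantile normalization, 2 with slide as a block, 2 with the replicate block (171 probes called in place of 56), 0 without the filter, and 0 to 1 with an array left out. The replicate block changed no other call of a member. Between the times, same-numbered arrays did not deviate together (r of -0.27 to -0.05 for HI and -0.44 to 0.05 for RV Mg), and the replicate block left 0 probes called in place of 7 for HI and 0 in place of 0 for RV Mg. In the Cy3 levels at 12 h the same-numbered correlations were 0.20, -0.11 and 0.22, 2 of 3 arrays matched their own number best, and 0 probes were called with the block.

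Other called-probe totals that moved by over 1.5 times include those of RV Mg at 3 h (1468 to 786 with loess, 749 without the filter and 2294 without replicate 1), RV Mg at 12 h (0 to 415 with loess and 648 without replicate 3), MgSO4 with loess (36, 26, 65 and 28 at 3, 6, 12 and 24 h), MgSO4 at 6 h without replicates 3 and 7 (1499 in place of 5) and the Cy5 level at 3 h (617 and 713 without RV Mg replicates 1 and 3, 727 without RV PBS replicate 1, in place of 1198). With an array left out, the HI difference between the times went from 7 to between 0 and 78 (24 and 78 without 12 h replicates 1 and 3), MgSO4 at 6 h from 5 to between 0 and 8, MgSO4 at 24 h from 1 to between 0 and 5, and the Cy3 and Cy5 levels at 12 h from 0 to at most 5 and 8. The methods' t-test with adjustment called 6 probes for MgSO4 at 6 h and 0 in each other ratio comparison. The MgSO4 calls with loess were all higher in Cy5.

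Sign changes with all arrays kept were few. Cxcl1 in MgSO4 at 6 h was -0.044 with signals raised to the detection limit. Cxcl14 in MgSO4 at 12 h was -0.032 with median signals and loess, Cxcl16 in RV Mg at 3 h was -0.022 with slide as a random block, and the Cxcl16 Cy5 level difference at 3 h was -0.0011 with quantile normalization. With an array left out, values ranged as follows. In MgSO4 at 3 h, Cxcl12 ranged from -0.084 to 0.12 and Cxcl14 from -0.021 to 0.15. Cxcl1 ranged from -0.018 to 0.19 at 6 h and from -0.23 to 0.36 at 12 h. At 12 h the NM_001012477 probe of Cxcl12 ranged from -0.0045 to 0.29 and Cxcl14 from -0.065 to 0.050. At 24 h Cxcl12 ranged from -0.050 to 0.26 and Cxcl14 from -0.050 to 0.21. In HI at 3 h Cxcl12 ranged from -0.19 to 0.046. On the RV Mg arrays at 3 h, Cxcl1 ranged from -0.19 to 0.50, Cxcl14 from -0.042 to 0.0036 and Cxcl16 from -0.16 to 0.19. At 12 h Cxcl10 ranged from -0.17 to 1.31 and the NM_001012477 probe from -0.070 to 0.24. The 12 h minus 3 h difference in HI ranged from -0.59 to 0.34 for Cxcl1 and from -0.054 to 0.048 for Cxcl14. On the RV Mg arrays it ranged from -0.020 to 1.21 for Cxcl1, from -0.69 to 0.79 for Cxcl10 and from -0.068 to 0.25 for Cxcl12. Among level differences, Cxcl12 in Cy3 at 3 h ranged from -0.15 to 0.034, Cxcl10 in Cy5 at 3 h from -0.13 to 0.59, Cxcl16 in Cy5 at 3 h from -0.075 to 0.22, Cxcl1 in Cy5 at 12 h from -0.73 to 0.29 and Cxcl16 in Cy5 at 12 h from -0.026 to 0.38.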
